A study of Rattus norvegicus with 30 samples.

Results

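Rat inner medullary collecting duct cells in primary culture that had grown at 900 mosmol/kg and were then challenged with 300 mosmol/kg for 24 h, called returned cells, were set against cells of the same kind that were cultured at 300 mosmol/kg without a challenge, called steady 300. Both groups ended at the same osmolality, so the comparison asks what still differs between them. It compares 6 of the 30 arrays of the series, 3 returned (numbered 1, 2 and 9) and 3 steady 300 (numbered 1, 2 and 3). Each gene's spread for the tests was estimated from all 30 arrays. The 3 arrays of cells kept at 900 mosmol/kg, called steady 900, are given beside them as the level the returned cells came from. Cyclosporin A, a calcineurin inhibitor, appears at 5 µM in the treatment protocol of all samples but in none of the titles, so which cultures received it is not settled by the labels. The labels do not say whether arrays of a group came from separate cultures or animals, how long cells stayed at 900 mosmol/kg, or how old the steady 300 cultures were. The p-values thus reflect only the spread among arrays within the groups of the series, and that spread may be technical.

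The inner medullary collecting duct is the last tubule segment of the kidney, where vasopressin controls water and urea transport in a tissue of high and changing osmolality. Its cells adapt to high tonicity through the transcription factor NFAT5, which raises genes for the uptake and synthesis of organic osmolytes, for urea transport and for chaperones. When tonicity falls, cells swell, release osmolytes and lower these genes. A culture of medullary tissue can also hold interstitial fibroblasts, leukocytes, endothelial cells and cells of other tubule segments, so marker lists of those types were read beside the duct genes.

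All values are deposited log2 expression levels, so a difference of 1 is a 2-fold change, and levels are set only within a gene. The summed level of epithelial junction and keratin markers, which the brightest genes dominate, was 29010 to 29320 in returned cells, 30630 to 32020 in steady 900 and 26430 to 26770 in steady 300, in linear units over 18 genes; single members differed more, as given below. Markers of the collecting duct principal cell were the more uneven part of the label, as described below. Leukocyte markers summed to 2376 to 2523 in returned cells, 3405 to 3722 in steady 900 and 14510 to 15460 in steady 300 over 17 genes. Fibroblast and interstitial markers summed to 9889 to 10040 in returned cells, 7999 to 8175 in steady 900 and 37450 to 38570 in steady 300 over 16 genes. The brightest genes weigh most in these sums as well. Against steady 900, 4 fibroblast markers, the bright Vim and Fn1 among them, were higher and 3 were lower, with a median log2 difference of -0.004. In RNA of a whole culture, fewer cells of a type and less RNA per cell cannot be told apart.

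After 24 h at 300 mosmol/kg the returned cells differed from steady 300 at a large share of the genome. Of 14506 genes, 2953 (20.4%) were higher and 3227 (22.2%) were lower in returned cells than in steady 300 at a limma adjusted p under 0.05, and 604 and 673 of them by at least 2-fold. Against steady 900, 2795 (19.3%) were higher and 2678 (18.5%) were lower in returned cells, 299 and 294 by at least 2-fold. Steady 900 itself had 2927 genes (20.2%) higher and 3228 (22.3%) lower than steady 300, 693 and 794 by at least 2-fold. These comparisons share arrays, so they are given side by side and their overlap is not used. The median absolute log2 difference between a returned array and another array lay between 0.215 and 0.247 for steady 900 arrays, between 0.201 and 0.212 for arrays of cells kept at 600 mosmol/kg, and between 0.239 and 0.251 for steady 300 arrays. Among the returned arrays themselves it lay between 0.0891 and 0.118. The Pearson correlation with a returned array was 0.9796 to 0.9807 for steady 900 arrays and 0.9784 to 0.9804 for arrays kept at 600 mosmol/kg. For steady 300 arrays it was lower, 0.9555 to 0.959. Which culture was nearest thus depended on the measure, and steady 300 was furthest by correlation.

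**Figure D1:**
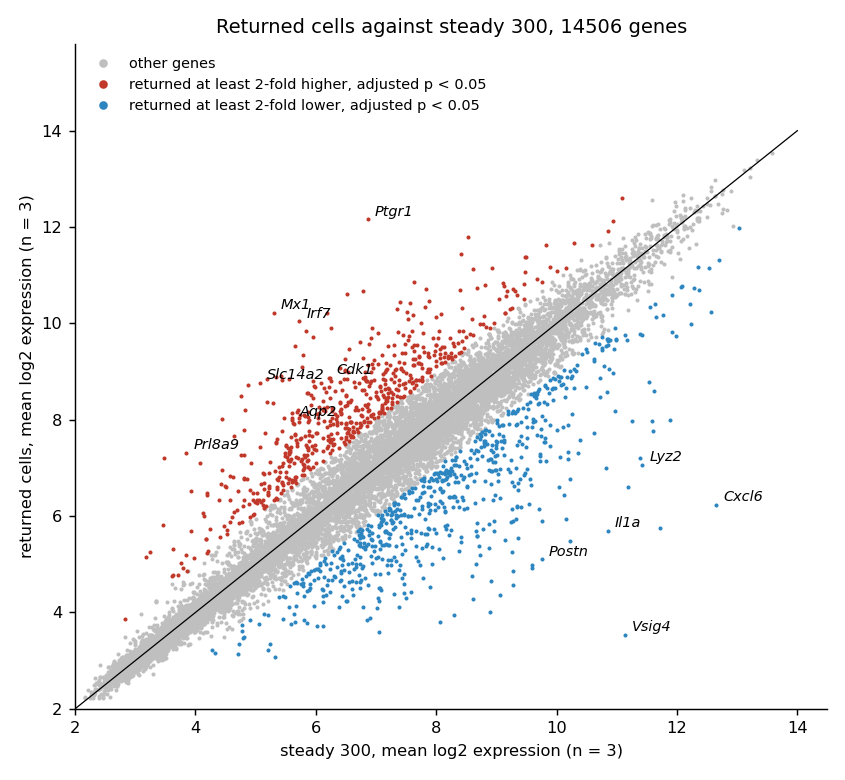
Mean log2 expression of 14506 genes in returned cells (vertical axis) against steady 300 (horizontal axis), 3 arrays each, with the line of equal level. Red points are the 604 genes at least 2-fold higher and blue points the 673 genes at least 2-fold lower in returned cells at an adjusted p under 0.05; Ptgr1, Mx1 and Irf7 lie far above the line and Vsig4 and Cxcl6 far below it.

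The lists of genes differed widely in how many members had changed. All 16 measured mitosis genes, all 15 replication genes and 28 of 29 interferon-stimulated genes were higher in returned cells than in steady 300, and 15 of 21 principal cell genes were. All 17 leukocyte markers, 15 of 16 fibroblast markers, 23 of 25 cytokine and NF-kB target genes and 10 of 11 matricellular genes were lower. Immediate early genes (5 of 20 higher, 5 lower) and unfolded protein response genes (5 of 20 higher, 6 lower) moved in both directions, in shares near those over all genes. Each list count here and below is to be read beside those shares. They were 20.4% higher and 22.2% lower than in steady 300, and 19.3% higher and 18.5% lower than in steady 900.

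**Figure D2:**
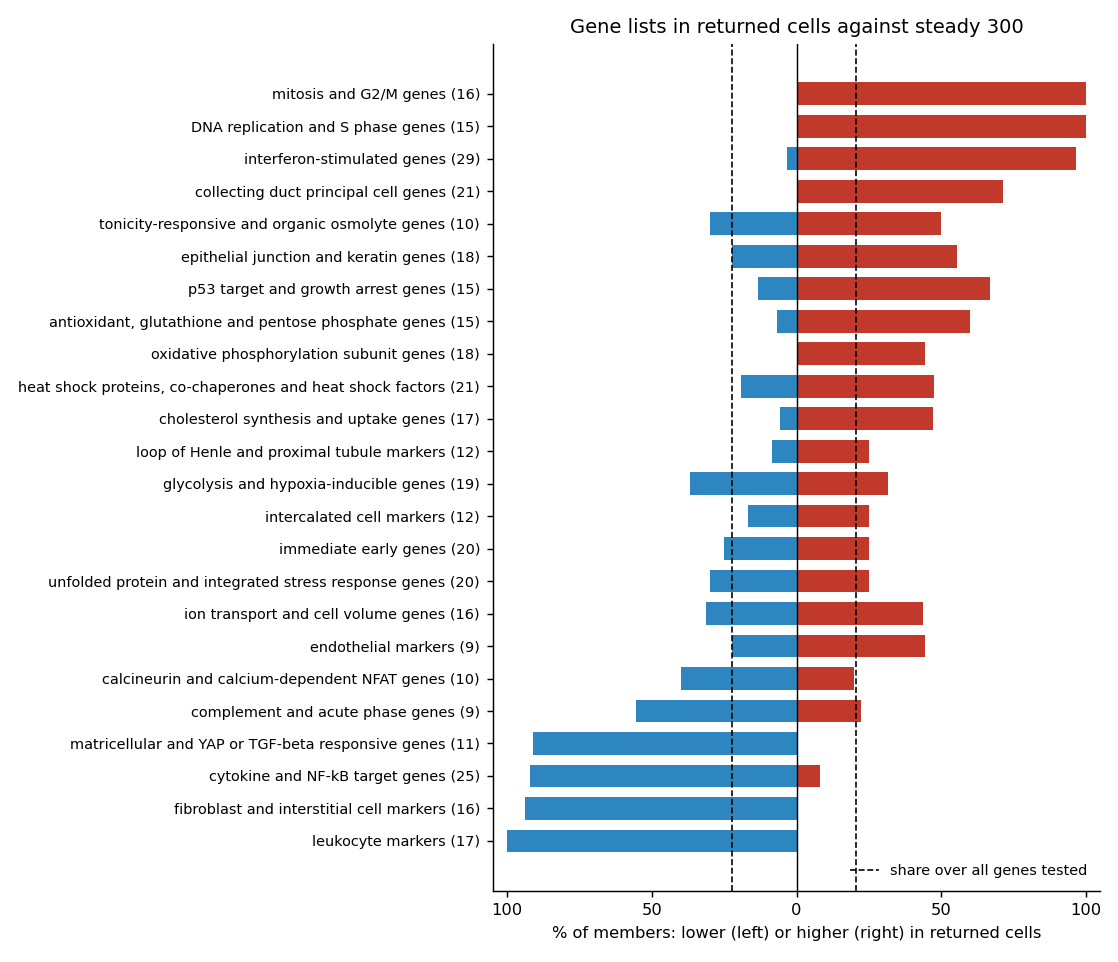
Share of each gene list's measured members (number in brackets) that were lower (left, blue) or higher (right, red) in returned cells than in steady 300 at an adjusted p under 0.05, in percent. The dashed lines mark the shares over all 14506 genes, 22.2% lower and 20.4% higher; the mitosis and replication lists have all members higher and the leukocyte list has all members lower.

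Many but not all genes of the collecting duct principal cell, the cell that answers to vasopressin, stood between the steady levels. Of 21 measured members 15 were higher and 0 were lower in returned cells than in steady 300, with a median log2 difference of 0.81 against -0.02 over all genes. Against steady 900, 15 were lower and 1, the transcription factor Tfcp2l1, was higher, with a median of -0.89; without returned replicate 2 or 9 or without steady 900 replicate 1 or 3, no member was called higher there. The summed level of the list was 6371 to 6572 in returned cells, 20050 to 21430 in steady 900 and 2162 to 2277 in steady 300. Aqp2, the vasopressin-regulated apical water channel, was at 8.19, 7.93 and 7.86 in returned cells, at 12.13, 12.00 and 12.01 in steady 900, and at 6.07, 5.09 and 5.67 in steady 300. All 3 returned arrays were above all steady 300 arrays and below all steady 900 arrays. The difference was 2.39 ± 0.20 (log2 ± SE, limma adjusted p = 3.28e-11) from steady 300, a 5.23-fold higher level, and -4.05 ± 0.20 from steady 900. Slc14a2, the urea transporter gene of the inner medulla and a known NFAT5 target, was at 8.83, 8.76 and 8.72 in returned cells, at 11.36, 11.33 and 11.25 in steady 900, and at 4.89, 5.05 and 5.28 in steady 300. It was 12.9-fold higher than in steady 300 (3.69 ± 0.13, limma adjusted p = 2.69e-19) and 5.83-fold lower than in steady 900. The basolateral water channel gene Aqp3 was at 9.51, 9.21 and 9.32 in returned cells, 11.34, 11.07 and 11.10 in steady 900, and 6.06, 5.68 and 5.62 in steady 300. It was 11.8-fold above steady 300 and 3.54-fold below steady 900.

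Other principal cell genes held their level to very different degrees. Fxyd4, a regulator of the sodium pump in the collecting duct, was at 10.67, 10.48 and 10.71 in returned cells, 11.54, 11.50 and 11.49 in steady 900, and 6.94, 6.26 and 6.34 in steady 300, which made it 17.2-fold higher than in steady 300 and 1.85-fold lower than in steady 900. The vasopressin receptor gene Avpr2 averaged 7.59 in returned cells, 9.61 in steady 900 and 5.36 in steady 300. The epithelial transcription factor gene Elf5 averaged 8.36, 10.79 and 5.19 in the same groups. Both stood about midway between the steady cultures on the log2 scale. Nr3c2, the mineralocorticoid receptor gene, was higher than in steady 300 by 1.39 and lower than in steady 900 by 0.62. The vasopressin-coupled adenylyl cyclase gene Adcy6 averaged 8.50 in returned cells, 9.54 in steady 900 and 8.63 in steady 300, and its difference from steady 300 did not pass the test (limma adjusted p = 0.16). Ptger1 was likewise 1.06 below steady 900 and did not pass against steady 300 (limma adjusted p = 0.94). Grhl2 and Kcnj1 were above steady 300 and did not pass against steady 900 (limma adjusted p = 0.094 and 0.70). Kcnj1 was dim, with means of 4.11 in returned cells, 4.20 in steady 900 and 3.75 in steady 300. The sodium channel subunit gene Scnn1a was 1.26 above steady 300 and 0.78 below steady 900. The other subunit genes, Scnn1b and Scnn1g, and the steroid enzyme gene Hsd11b2 did not pass the test against steady 300, with means between 4.67 and 5.71 in all 3 groups.

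**Figure D3:**
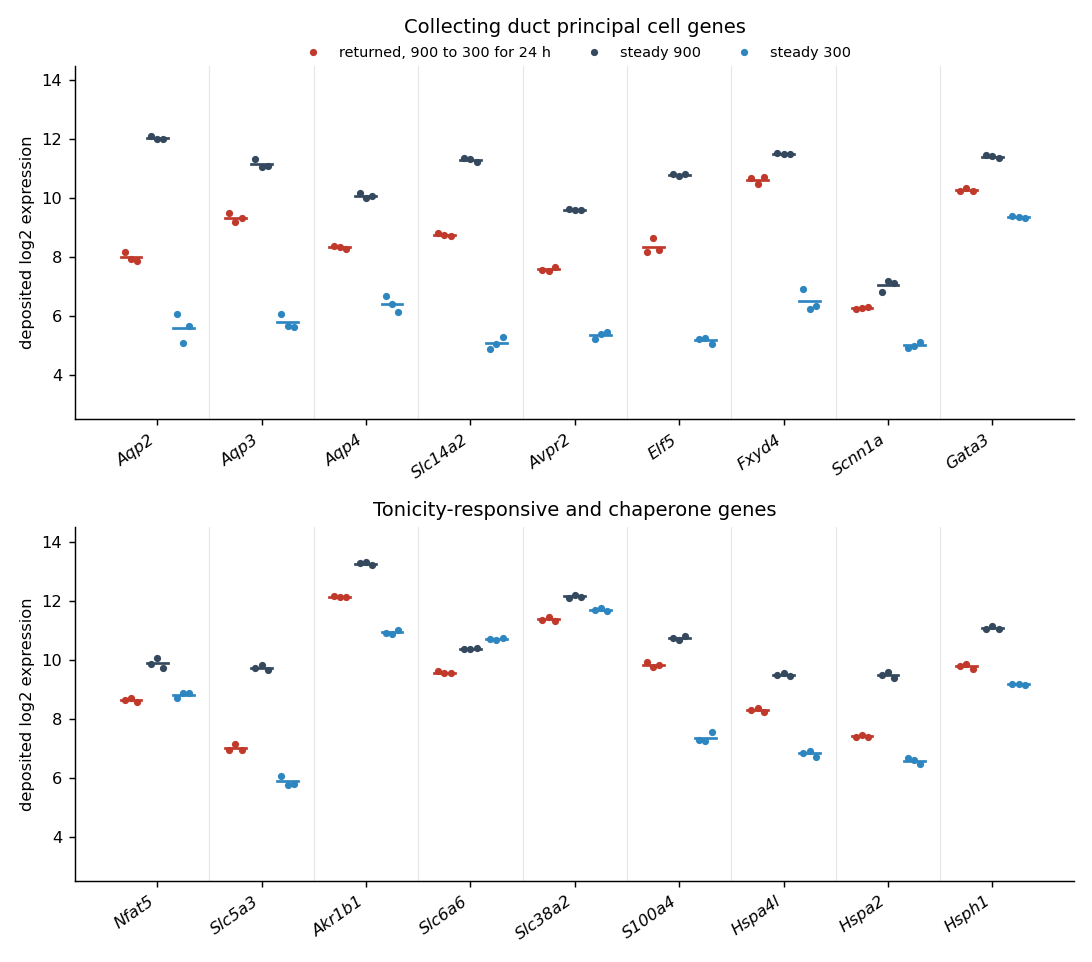
Deposited log2 expression of 9 principal cell genes (upper panel) and 9 tonicity-responsive or chaperone genes (lower panel) in each array of returned cells (red), steady 900 (dark) and steady 300 (blue); dots are arrays and bars are group means, n = 3 each. Aqp2 averaged 8.0 in returned cells, 12.04 in steady 900 and 5.61 in steady 300, while Nfat5 and Slc38a2 in returned cells lay near or under steady 300 and Slc6a6 lay below both.

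The tonicity-responsive and osmolyte genes split into those above and those at or under the steady 300 level. Of 10 measured members, 5 were higher and 3 lower in returned cells than in steady 300 (median 0.48), and 9 were lower and 1 higher than in steady 900 (median -1.02). Nfat5 itself was at 8.62, 8.71 and 8.56 in returned cells, 9.86, 10.05 and 9.72 in steady 900, and 8.70, 8.87 and 8.86 in steady 300. The returned and steady 300 arrays overlapped, and the difference of -0.18 (95% interval -0.40 to 0.04) did not pass the test (limma adjusted p = 0.197), whereas the level was 2.37-fold lower than in steady 900. Akr1b1, the aldose reductase gene that makes sorbitol, was at 12.15, 12.12 and 12.12 in returned cells, 13.26, 13.31 and 13.21 in steady 900, and 10.91, 10.87 and 11.01 in steady 300. It lay midway between the steady levels, 2.29-fold above steady 300 and 2.19-fold below steady 900. Slc5a3, the myo-inositol transporter gene, was at 6.95, 7.16 and 6.93 in returned cells, 9.71, 9.81 and 9.66 in steady 900, and 6.06, 5.76 and 5.79 in steady 300, so that it was 2.20-fold above steady 300 after a 6.56-fold lower level than steady 900.

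Slc6a6, the taurine transporter gene, was under both steady cultures, at 9.62, 9.54 and 9.53 in returned cells, 10.35, 10.37 and 10.39 in steady 900, and 10.72, 10.68 and 10.72 in steady 300. It was 2.21-fold lower than in steady 300 and 1.75-fold lower than in steady 900. The neutral amino acid transporter gene Slc38a2 was also under both, by 0.32 against steady 300 and 0.78 against steady 900. Gdpd5, which breaks down the osmolyte glycerophosphocholine, was the only member of the list above steady 900, by 0.53, and was 0.88 under steady 300. S100a4, a small calcium-binding protein gene, was at 9.91, 9.75 and 9.83 in returned cells, 10.75, 10.66 and 10.79 in steady 900, and 7.29, 7.23 and 7.56 in steady 300, a 5.54-fold higher level than in steady 300. With weights given to arrays by their quality, 5 members and not 3 were lower than in steady 300, Nfat5 among them (limma adjusted p = 0.0489).

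Of 21 genes of heat shock proteins, co-chaperones and heat shock factors, 10 were higher and 4 were lower in returned cells than in steady 300. The shares over all genes were 20.4% and 22.2%. The heat shock factor gene Hsf2 was among the 4 lower ones, by 0.36. The HSP110 family gene Hspa4l, a tonicity-induced chaperone, was at 8.29, 8.37 and 8.24 in returned cells, 9.49, 9.54 and 9.44 in steady 900, and 6.85, 6.91 and 6.70 in steady 300. It was 2.79-fold above steady 300 and 2.28-fold below steady 900, with no overlap between groups. Hspa2, of the HSP70 family, was closer to steady 300, 1.77-fold above it and 4.24-fold below steady 900. The mitochondrial chaperonin genes Hspd1 and Hspe1 were above both steady cultures, by 0.79 and 0.85 against steady 300 and by 0.34 and 0.52 against steady 900. Dnajb4, a J-domain co-chaperone gene, was at 9.13, 9.18 and 9.09 in returned cells, 9.66, 9.72 and 9.66 in steady 900, and 10.35, 10.36 and 10.31 in steady 300, under both. The constitutive chaperone gene Hspa8 and the HSP90 genes Hsp90aa1 and Hsp90ab1 did not pass the test in either comparison.

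Genes of ion transport and cell volume also moved in both directions, 7 of 16 higher and 5 lower than in steady 300, and 9 lower and 2 higher than in steady 900. Over all genes the shares were 20.4% higher and 22.2% lower than in steady 300, and 18.5% lower and 19.3% higher than in steady 900. Fxyd2, the gamma subunit of the sodium pump, was at 9.17, 9.13 and 9.12 in returned cells, 10.87, 10.85 and 10.84 in steady 900, and 7.71, 7.53 and 7.59 in steady 300, and so lay 2.89-fold above steady 300. Bsnd, the chloride channel subunit barttin, was closer to steady 300 than to steady 900, at 5.54, 5.60 and 5.86 in returned cells, 8.55, 8.48 and 8.66 in steady 900, and 4.74, 4.77 and 5.00 in steady 300. The kinase gene Stk39, which activates sodium-potassium-chloride cotransport, was 1.87-fold above steady 300 and 1.75-fold below steady 900. Without returned replicate 1, 1 member and not 2 was called higher than steady 900.

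Markers of other tubule segments did not give a single picture. Among 12 loop of Henle and proximal tubule markers, 3 were higher and 1 was lower than in steady 300, against 20.4% and 22.2% of all genes. The list summed to 940.6 to 1039 in returned cells, 5421 to 5849 in steady 900 and 591.2 to 655.8 in steady 300. The water channel gene Aqp1 made up most of that range, at 9.20, 8.97 and 8.97 in returned cells, 12.26, 12.16 and 12.13 in steady 900, and 7.88, 7.78 and 7.91 in steady 300. Cldn10, a paracellular cation pore gene, was 2.37-fold above steady 300 and 3.75-fold below steady 900, and the thick ascending limb cotransporter gene Slc12a1 was 0.59 above steady 300 and 1.48 below steady 900. The endocytic receptor gene Lrp2 was 0.50 below steady 900 and did not pass the test against steady 300 (limma adjusted p = 0.10). Umod, Slc34a1 and Cubn did not pass it in either comparison. Their means lay between 4.25 and 4.58 in all groups, under the lower quartile of all gene levels (4.66), so these tests say little about them. Of 12 intercalated cell markers 3 were higher and 2 were lower than in steady 300, close to the shares over all genes, 20.4% higher and 22.2% lower. Car2, carbonic anhydrase II, was 3.29-fold higher than in steady 300. Slc26a4, the anion exchanger pendrin, was at 6.86, 7.01 and 7.16 in returned cells, 5.41, 5.48 and 5.20 in steady 900, and 9.43, 9.36 and 9.18 in steady 300. It was 4.97-fold lower than in steady 300. The intercalated cell regulator Foxi1 did not pass the test against steady 300 (limma adjusted p = 0.10). Foxi1 averaged only 4.68 in returned cells, 4.81 in steady 900 and 4.94 in steady 300, near the lower quartile of all gene levels (4.66). Among the 18 epithelial genes, 10 were higher and 4 lower than in steady 300; Muc1, a surface mucin, was 6.85-fold and the kidney cadherin Cdh16 2.13-fold higher, and the 4 lower ones were the keratin genes Krt7, Krt8 and Krt18 and the claudin gene Cldn3, by 0.26 to 0.44.

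Interferon-stimulated genes, which act against viruses, stayed far above steady 300. Of 29 measured members 28 were higher and 1 was lower in returned cells than in steady 300, with a median of 1.85. Against steady 900, 19 were higher and 2 lower, with a median of 0.58, and 18 lay above every array of both steady groups in both tests. Irf7, a transcription factor that amplifies interferon production, was at 10.06, 10.09 and 9.97 in returned cells, 9.45, 9.54 and 9.20 in steady 900, and 5.84, 5.54 and 5.79 in steady 300. All 3 returned arrays were the highest, above steady 300 by 4.32 ± 0.13 (limma adjusted p = 9.77e-21) and above steady 900 by 0.65 ± 0.13, or 1.57-fold. Isg15, a ubiquitin-like modifier, was at 10.44, 10.39 and 10.43 in returned cells, 9.69, 9.42 and 9.60 in steady 900, and 7.68, 7.43 and 7.56 in steady 300. Bst2, the surface protein tetherin that holds back budding virus, had the largest increase of the list over steady 900, at 9.53, 9.83 and 9.72 in returned cells, 8.22, 8.28 and 8.23 in steady 900, and 7.97, 7.99 and 7.89 in steady 300. Its level was 3.36-fold above steady 300 and 2.73-fold above steady 900, while steady 900 was 1.23-fold above steady 300.

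Mx1, an antiviral GTPase, was at 10.12, 10.28 and 10.24 in returned cells, 10.83, 10.88 and 10.80 in steady 900, and 6.03, 5.35 and 4.52 in steady 300. It was 30.1-fold above steady 300 and 1.54-fold below steady 900 (limma adjusted p = 0.0387), and the steady 300 arrays spread more than those of other genes named here. Without any 1 of the returned or steady 900 arrays its difference from steady 900 no longer passed (limma adjusted p between 0.0616 and 0.108). That left 1 member lower than steady 900, the transcription factor gene Stat2. The fit takes each gene's spread from all groups together, and the standard deviation of Mx1 was 0.75 in steady 300. It was 0.09 in returned cells and 0.04 in steady 900, whose arrays did not overlap. With the compared arrays alone the difference of Mx1 from steady 900 still passed. The related Mx2 averaged 10.66 in returned cells, 10.56 in steady 900 and 6.79 in steady 300, and the chemokine gene Cxcl10 averaged 9.52, 9.30 and 5.65. For both the difference from steady 900 did not pass the test (limma adjusted p = 0.757 and 0.189). Genes of the immunoproteasome and antigen loading, Psmb8, Psmb9 and Tap1, were higher than steady 300 by 1.31, 1.48 and 1.74 and higher than steady 900 by 0.60, 0.83 and 0.87. The guanylate-binding protein gene Gbp2, which answers mainly to interferon-gamma, was the exception: it was 0.72 lower than in steady 300 and 0.78 higher than in steady 900.

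Promoter sequences were read to show which of these genes carry the motif bound by interferon-activated factors. RefSeq promoter sequences (GRCr8 assembly) were matched to 22 of the 29 interferon genes and to 11968 of all measured genes. The core searched was GAAA, 2 unspecified bases, GAAA, on both strands in the 250 bases before the first start listed. It stood in 12 of the 22 (54.5%), against 372 of all 11968 (3.11%), 91 of 2458 genes higher than steady 300 (3.7%) and 67 of 2599 lower ones (2.58%). The holders included Irf7, Bst2 and Rsad2, which were higher, and also Gbp2, which was lower, so a copy was found on both sides. The 4 windows below are read along each gene's strand, with the core in capitals (2 overlapping copies in Bst2); the letters TTTC mark a copy on the other strand. The core begins 69 bases before the start in Irf7 (chr1:205800043-205800132, minus strand), 131 in Bst2 (chr16:18255043-18255138, minus strand), 147 in Rsad2 (chr6:48788218-48788307, minus strand) and 31 in Gbp2 (chr2:234005656-234005726, plus strand).
Irf7: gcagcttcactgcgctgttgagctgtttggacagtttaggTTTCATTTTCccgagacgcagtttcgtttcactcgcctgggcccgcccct
Bst2: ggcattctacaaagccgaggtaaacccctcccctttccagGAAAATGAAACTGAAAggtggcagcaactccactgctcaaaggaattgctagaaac
Rsad2: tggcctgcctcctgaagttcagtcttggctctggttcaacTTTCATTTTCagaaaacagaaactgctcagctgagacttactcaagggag
Gbp2: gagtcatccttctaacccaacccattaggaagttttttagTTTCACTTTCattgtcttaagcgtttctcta
The tonicity-responsive enhancer, the motif of NFAT5, was searched as TGGAAA, 2 unspecified bases, C or T, 1 unspecified base, C or T. It was found in 1 of 8 matched tonicity genes, Slc6a6 (12.5%), and in 3 of 22 interferon genes (13.6%). It stood in 86 of 2458 genes higher than steady 300 (3.5%), 95 of 2599 lower ones (3.66%) and 461 of all 11968 (3.85%). The 2 patterns can overlap: in Ifi27 an enhancer match lies partly on an interferon core, so the same letters count for both. A match is a stretch of letters and not a tested binding site, and these windows leave out distant enhancers.

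**Figure D4:**
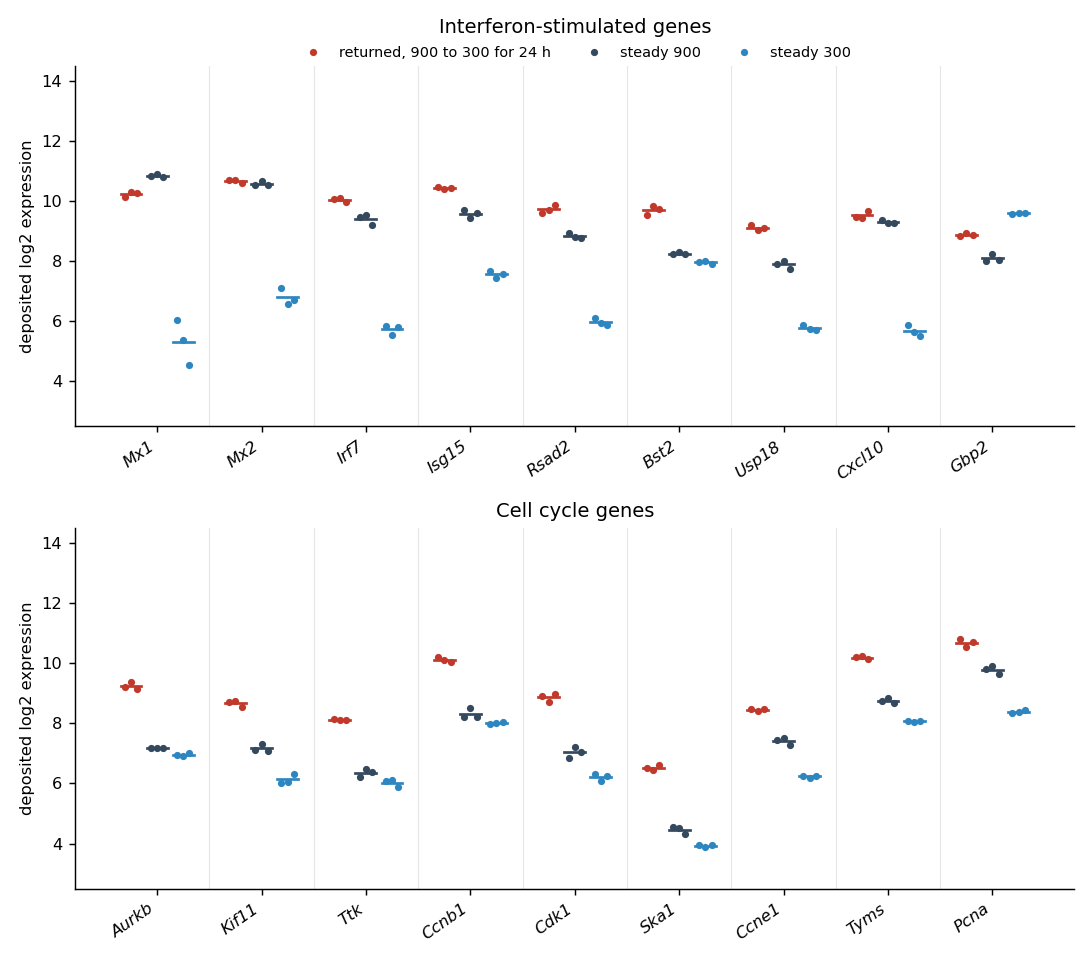
Deposited log2 expression of 9 interferon-stimulated genes (upper panel) and 9 cell cycle genes (lower panel) in each array of returned cells (red), steady 900 (dark) and steady 300 (blue); dots are arrays and bars are group means, n = 3 each. Irf7 averaged 10.04 in returned cells, 9.39 in steady 900 and 5.72 in steady 300, and Gbp2 alone among the interferon genes shown was highest in steady 300; in all 9 cell cycle genes the returned arrays are the highest.

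Cell cycle genes were higher in returned cells than in either steady culture. All 16 measured mitosis genes were higher than in steady 300 (median 2.11) and higher than in steady 900 (median 1.52), and all 16 lay above every steady array. Aurkb, the mitotic kinase of the chromosome passenger complex, was at 9.22, 9.39 and 9.15 in returned cells, 7.17, 7.17 and 7.18 in steady 900, and 6.96, 6.92 and 7.01 in steady 300. It was 4.88-fold above steady 300 and 4.22-fold above steady 900, whose own difference from steady 300 did not pass the test (limma adjusted p = 0.151). The spindle motor gene Kif11 was at 8.71, 8.73 and 8.55 in returned cells, 7.10, 7.33 and 7.09 in steady 900, and 6.02, 6.06 and 6.33 in steady 300. The spindle checkpoint kinase gene Ttk averaged 8.13, 6.36 and 6.02, and the kinetochore gene Ska1 averaged 6.52, 4.46 and 3.92, in the same order of groups. All 15 replication and S phase genes were higher than in steady 300 (median 2.09) and 14 were higher than in steady 900 (median 0.79), with E2f1 as the exception. Ccne1, the cyclin that starts S phase, was at 8.48, 8.41 and 8.49 in returned cells, 7.44, 7.53 and 7.30 in steady 900, and 6.26, 6.20 and 6.25 in steady 300. Tyms, which makes thymidylate for DNA synthesis, was 4.34-fold above steady 300 and 2.70-fold above steady 900. Unlike for Aurkb, steady 900 was itself higher than steady 300 in 11 of the 16 mitosis genes (median 0.51). The same held for 14 of the 15 replication genes (median 1.19), and no member of either list was lower. Over all genes 20.2% were higher and 22.3% lower in steady 900 than in steady 300.

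Of 15 measured genes of growth arrest and p53 signalling 10 were higher and 2 lower in returned cells than in steady 300 (median 0.36), and 12 were higher and 1 lower than in steady 900 (median 0.59). Gdf15, a stress-induced secreted factor, was at 9.50, 9.48 and 9.59 in returned cells, 9.12, 8.91 and 8.96 in steady 900, and 7.29, 7.13 and 7.17 in steady 300, 5.01-fold above steady 300. Gadd45a, a growth arrest gene, was at 10.50, 10.59 and 10.55 in returned cells, 9.79, 9.64 and 9.81 in steady 900, and 9.74, 9.77 and 9.79 in steady 300. It stood apart in the returned cells alone, 1.72-fold above steady 300 and 1.74-fold above steady 900. Mdm2, the p53 ubiquitin ligase, was higher by 0.84 and 0.89 in the same comparisons. Cdkn1a, the cell cycle inhibitor p21, was 0.92 higher than in steady 900 and did not pass the test against steady 300 (limma adjusted p = 0.37). The 2 members lower than in steady 300 were Gadd45g and the proapoptotic Pmaip1. Sesn1, lower than in steady 900 by 1.13, was 0.21 above steady 300 (limma adjusted p = 0.0136), which did not pass without steady 300 replicate 1 (0.0765).

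Among 15 antioxidant, glutathione and pentose phosphate genes, 9 were higher and 1, Gpx2, was lower in returned cells than in steady 300. Nqo1, a quinone reductase under control of the factor NRF2, was at 9.82, 9.65 and 9.78 in returned cells, 8.54, 8.58 and 8.52 in steady 900, and 7.52, 7.58 and 7.57 in steady 300. It was 4.58-fold above steady 300 and 2.30-fold above steady 900. Txnrd1, thioredoxin reductase, was also above both, by 0.48 and 1.08. Gsr, glutathione reductase, lay between the steady levels, at 10.26, 10.25 and 10.14 in returned cells, 11.28, 11.33 and 11.21 in steady 900, and 9.18, 9.14 and 9.12 in steady 300.

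The unfolded protein and integrated stress response list was mixed against steady 300, with 5 of 20 higher and 6 lower (median -0.03), and 10 higher and 3 lower than in steady 900. Sdf2l1, a protein of the endoplasmic reticulum chaperone complex, was at 8.81, 8.82 and 8.83 in returned cells, 6.97, 6.99 and 6.81 in steady 900, and 7.10, 7.12 and 7.20 in steady 300. Its 3.20-fold higher level than in steady 300 was far from that of Creld2, another gene of the same compartment, at 1.52-fold. The main chaperone of the compartment, Hspa5, was 0.42 above steady 900 and did not pass the test against steady 300 (limma adjusted p = 0.34). Of 17 cholesterol genes 8 were higher than in steady 300 and 1, Lss, was lower, a call that was lost without steady 300 replicate 3. Acat2 was 1.46-fold and Sc5d 1.30-fold higher. Of 18 oxidative phosphorylation subunits 8 were higher and 0 lower, with a median of 0.21, but the count was 4 or 5 without returned replicate 1, returned replicate 9, steady 300 replicate 1 or steady 300 replicate 2, and 14 with array weights. Cox5a was 1.47-fold and Ndufv1 1.43-fold higher.

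Glycolysis and hypoxia-inducible genes were split, 6 of 19 higher and 7 lower than in steady 300, against 20.4% and 22.2% of all genes. Vegfa, the endothelial growth factor, was at 7.06, 7.18 and 6.91 in returned cells, 7.01, 6.98 and 6.93 in steady 900, and 8.44, 8.36 and 8.33 in steady 300. It was 2.51-fold lower than in steady 300, and its difference from steady 900 did not pass the test (limma adjusted p = 0.642). Egln3, a prolyl hydroxylase that marks HIF for breakdown, went the other way and was 1.96-fold higher than in steady 300. Hk1, hexokinase 1, lay between the steady levels, 1.40-fold above steady 300 and 1.52-fold below steady 900. Of 20 immediate early genes 5 were higher and 5 lower. Egr1, a growth factor-induced transcription factor, was at 9.38, 9.40 and 9.37 in returned cells, 9.26, 9.27 and 9.30 in steady 900, and 7.79, 8.05 and 7.78 in steady 300, 2.85-fold above steady 300. The AP-1 subunit gene Fosl1 was 1.93-fold higher than in steady 300 and 1.86-fold higher than in steady 900, and Dusp1, a MAP kinase phosphatase, was 1.32-fold lower than in steady 300 and 1.77-fold lower than in steady 900. Of 10 calcineurin and calcium-dependent NFAT genes 2 were higher and 4 lower than in steady 300, against 20.4% and 22.2% of all genes. Among them were Nfatc4 (2.15-fold lower) and Rcan2 (1.46-fold lower), while the cyclophilin gene Ppif was 1.57-fold higher. Rcan1, a calcineurin target, did not pass the test in either comparison.

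Leukocyte markers had the lowest median of the 24 lists. All 17 were lower in returned cells than in steady 300, with a median of -2.67 and a range from -7.60 to -0.97. Against steady 900, 8 were lower and 3 higher with a median of -0.33, beside 18.5% lower and 19.3% higher over all genes. Vsig4, a complement receptor of resident macrophages, was at 3.47, 3.22 and 3.92 in returned cells, 3.28, 3.56 and 4.06 in steady 900, and 11.04, 11.18 and 11.19 in steady 300. The returned and steady 900 arrays overlapped, and the level was 194-fold lower than in steady 300 (-7.60 ± 0.14, limma adjusted p = 3.25e-25). Lyz2, the lysozyme gene of macrophages, was at 6.92, 7.27 and 6.99 in returned cells, 9.83, 9.61 and 9.56 in steady 900, and 11.40, 11.46 and 11.39 in steady 300. It was 20.5-fold lower than in steady 300 and 6.09-fold lower than in steady 900. Csf1r, the macrophage growth factor receptor, was at 5.29, 5.56 and 5.20 in returned cells, 7.41, 7.30 and 7.29 in steady 900, and 7.92, 7.92 and 7.97 in steady 300. It was 5.99-fold lower than in steady 300 and 3.97-fold lower than in steady 900. Itgam, an integrin of myeloid cells, averaged 4.77 in returned cells, 6.66 in steady 900 and 8.59 in steady 300, and Cybb, a subunit of the phagocyte oxidase, averaged 5.93, 8.38 and 10.15. The pan-leukocyte marker Ptprc averaged 5.09, 6.40 and 7.20. The complement C1q chain genes did not follow this order: C1qa and C1qc were 0.47 and 0.66 higher in returned cells than in steady 900, with log2 differences of -3.52 and -3.69 from steady 300. No marker is at 0 on this scale, and the deposited values give no detection call.

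Of 25 cytokine genes and NF-kB targets 23 were lower than in steady 300, with a median of -1.31, and 13 were higher and 5 lower than in steady 900, with a median of 0.46. Cxcl6, a neutrophil-attracting chemokine, was at 6.45, 6.43 and 5.84 in returned cells, 5.55, 5.26 and 5.11 in steady 900, and 12.75, 12.62 and 12.58 in steady 300. It was 85.0-fold lower than in steady 300 and 1.91-fold higher than in steady 900. Il1a, an interleukin 1 ligand, was at 5.59, 6.0 and 5.49 in returned cells, 4.26, 3.79 and 4.13 in steady 900, and 10.78, 10.97 and 10.80 in steady 300. The colony-stimulating factor gene Csf3 was 4.75-fold lower than in steady 300 and 1.72-fold higher than in steady 900, and Lif, a cytokine of the interleukin 6 family, was 2.26-fold lower and 2.75-fold higher. The 2 members higher than in steady 300 were the chemokine gene Ccl20 and the adhesion gene Vcam1, by 0.70 and 0.59. Of 9 complement and acute phase genes 5 were lower and 2 higher than in steady 300, against 22.2% and 20.4% of all genes. C3, the central complement component, was at 8.03, 8.05 and 7.92 in returned cells, 8.93, 8.99 and 8.87 in steady 900, and 11.92, 11.88 and 11.84 in steady 300, and C1r was 4.21-fold lower than in steady 300. Serpina3n, a protease inhibitor, was 2.68-fold above steady 300 and 6.44-fold below steady 900. The summed leukocyte markers differed between the same groups as given above, and their part in the cytokine and complement values was not tested.

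**Figure D5:**
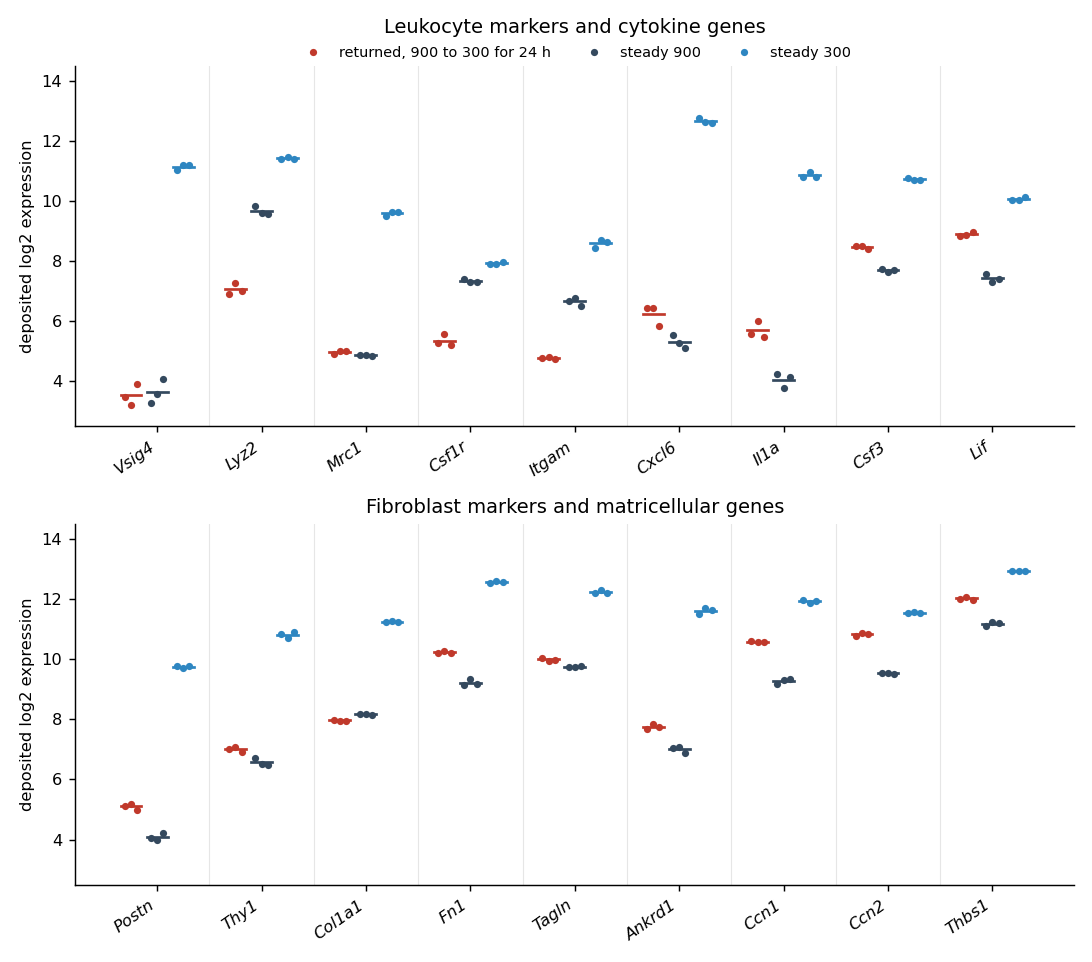
Deposited log2 expression of 9 leukocyte or cytokine genes (upper panel) and 9 fibroblast or matricellular genes (lower panel) in each array of returned cells (red), steady 900 (dark) and steady 300 (blue); dots are arrays and bars are group means, n = 3 each. Every steady 300 array is above every returned array for all genes shown. Lyz2, Csf1r and Itgam in returned cells are also below steady 900. Cxcl6, Il1a, Csf3, Lif, Postn, Thy1, Fn1, Ankrd1, Ccn1 and Ccn2 are among those above it.

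Fibroblast and interstitial markers were lower in 15 of 16 cases against steady 300, with a median of -2.05, while against steady 900 4 were higher and 3 lower with a median of -0.00. The counts against steady 900 are near the shares over all genes, 19.3% higher and 18.5% lower. Postn, a matrix protein of activated fibroblasts, was at 5.13, 5.18 and 5.00 in returned cells, 4.05, 4.0 and 4.23 in steady 900, and 9.79, 9.71 and 9.77 in steady 300. It was 25.2-fold lower than in steady 300 and 2.01-fold higher than in steady 900. Thy1, a surface marker of fibroblasts, was 14.1-fold lower than in steady 300 and 1.35-fold higher than in steady 900. Fn1, fibronectin, was at 10.22, 10.26 and 10.22 in returned cells, 9.14, 9.34 and 9.17 in steady 900, and 12.52, 12.60 and 12.57 in steady 300. The collagen genes Col1a1 and Col1a2 were 3.29 and 2.77 lower than in steady 300, and neither passed the test against steady 900 (limma adjusted p = 0.27 and 0.24). The 1 marker that did not pass against steady 300 was Lum, with means between 2.79 and 2.88.

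Matricellular and YAP or TGF-beta responsive genes were lower in 10 of 11 cases against steady 300 (median -0.91), and 7 were higher and 2 lower than in steady 900 (median 0.76). Ankrd1, a YAP target of stretched cells, was at 7.69, 7.83 and 7.75 in returned cells, 7.05, 7.07 and 6.88 in steady 900, and 11.50, 11.69 and 11.63 in steady 300, 14.4-fold lower than in steady 300. Ccn1, a secreted YAP target, lay midway, at 10.60, 10.57 and 10.58 in returned cells, 9.19, 9.32 and 9.33 in steady 900, and 11.96, 11.88 and 11.93 in steady 300. The related Ccn2 was nearer to steady 300, 1.64-fold below it and 2.45-fold above steady 900. The fibroblast markers differed between the same groups, and their part in these values was not tested. Endothelial markers were more even, summing to 3446 to 3779 in returned cells, 3831 to 3998 in steady 900 and 3174 to 3271 in steady 300. Of 9 members 4 were higher than in steady 300, Emcn by 2.33-fold and the receptor gene Tek by 2.28-fold, and 2 were lower, Cdh5 and Flt1.

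The largest single differences from steady 300 came from several of these groups and from genes outside them. Ptgr1, a reductase that inactivates prostaglandins and leukotriene B4, was at 12.14, 12.30 and 12.04 in returned cells, 11.85, 11.67 and 11.79 in steady 900, and 6.89, 6.99 and 6.70 in steady 300. Its 39.5-fold higher level was the largest increase (5.30 ± 0.16, limma adjusted p = 9.66e-21), and it did not pass the test against steady 900 (limma adjusted p = 0.0609; 0.00587 to 0.0433 under 6 alternatives that called it). Slc4a11, a membrane transporter of the bicarbonate transporter family, was at 10.22, 10.21 and 10.20 in returned cells, 11.15, 11.21 and 11.14 in steady 900, and 6.23, 6.13 and 6.19 in steady 300, 16.4-fold above steady 300. Mmp13, a collagenase, was 16.2-fold above steady 300 and 2.83-fold below steady 900. Among decreases outside the lists, Dlgap5l2 was 63.0-fold, the macrophage chemokine Ccl6 29.6-fold, the iron carrier transferrin (Tf) 26.7-fold, the fatty acid receptor Cd36 26.1-fold and the irritant-gated channel Trpa1 25.9-fold lower than in steady 300. Tf and Ccl6 did not pass the test against steady 900 (limma adjusted p = 0.431 and 0.161), while Cd36 and Trpa1 were 3.69-fold and 2.38-fold lower than in steady 900.

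The 5 largest increases against steady 900 ended on both sides of the steady 300 level, with Il33, Alox5 and Prl8a9 above it and F3 and Il24 below it. Il33, a nuclear alarmin of the interleukin 1 family, was at 10.90, 11.10 and 11.00 in returned cells, 7.88, 7.98 and 7.72 in steady 900, and 10.01, 10.21 and 10.09 in steady 300, so it was 8.83-fold above steady 900 and 1.87-fold above steady 300. Alox5, the 5-lipoxygenase of leukotriene synthesis, was likewise above both, by 5.53-fold and 2.33-fold. F3, tissue factor, the starter of blood clotting, was at 9.75, 9.88 and 9.68 in returned cells, 6.87, 7.00 and 6.96 in steady 900, and 10.69, 10.81 and 10.74 in steady 300, still 1.96-fold below steady 300. Il24, a cytokine of the interleukin 10 family, was 6.17-fold above steady 900 and 1.68-fold below steady 300. Among the largest decreases against steady 900 beside Aqp2, Aqp1 and Bsnd were Lypd2, a Ly6 family surface protein gene, and Prss35, a serine protease-like gene. Lypd2 was at 7.67, 7.73 and 7.58 in returned cells, 10.75, 10.61 and 10.67 in steady 900, and 4.53, 4.70 and 4.71 in steady 300. Both stayed well above steady 300, Lypd2 by 8.07-fold and Prss35 by 4.88-fold.

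Many genes lay outside the range of both steady cultures. All 3 returned arrays were above all 6 steady 900 and steady 300 arrays with both tests passed for 1356 genes (9.35%), and below all 6 for 1016 genes (7.00%). Judged by the smaller of its 2 log2 differences, Prl8a9, a prolactin family gene, was the furthest above, at 7.25, 7.39 and 7.30 in returned cells, 4.72, 4.37 and 4.56 in steady 900, and 3.94, 3.66 and 3.95 in steady 300. Havcr1, which encodes the tubule injury marker KIM-1, was at 10.22, 10.32 and 10.33 in returned cells, 7.96, 8.05 and 7.84 in steady 900, and 7.50, 7.36 and 7.16 in steady 300. It was 7.72-fold above steady 300 and 5.08-fold above steady 900. Dhrs9, a retinol dehydrogenase, averaged 9.01 in returned cells, 6.99 in steady 900 and 6.48 in steady 300. Aurkb and Ska1, given above, were the other 2 of the 5 furthest above. Of the 5 furthest below, 4 were the myeloid genes Lyz2, Cybb, Csf1r and Itgam, and the other was Igfbp5, which binds insulin-like growth factors. Igfbp5 was at 8.16, 8.21 and 7.97 in returned cells, 10.52, 10.54 and 10.34 in steady 900, and 10.17, 10.27 and 10.33 in steady 300. It was 4.41-fold lower than in steady 300 and 5.10-fold lower than in steady 900, between which the difference did not pass the test (limma adjusted p = 0.223). Of the lists, the mitosis, interferon and replication genes held 16, 18 and 14 members above both steady groups, and the leukocyte list held 8 below both.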

How the data were processed

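Total RNA was measured on arrays, 1 per sample. The authors deposited log2 values made with RMA, per the submitters' processing notes, which name no version. RMA scales arrays to each other and flattens at low and high levels, so changes of very dim or bright genes can be understated. Of 29170 probe sets 15310 had 1 gene symbol in the platform annotation; the brightest probe set represented each gene, giving 14506. Comparisons used limma 3.58.1 (R 4.3.3) with 1 mean per group over all 30 arrays, eBayes and Benjamini-Hochberg adjustment over 14506 genes, at 0.05; the fit was tested on simulated data. Values are log2 ± SE or group means, n = 3 arrays, whose number limits the precision.

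Members and lists were chosen with earlier results of these data known. The text names the 6 genes Nfat5, Akr1b1, Slc5a3, Slc6a6, Slc14a2 and Aqp2, the 8 largest changes each way from steady 300, 5 each way from steady 900, 5 furthest above or below both, and, per list, the 2 smallest adjusted p from steady 300 and the smallest from steady 900; the largest changes skip symbols beginning LOC, RGD or MGC. Other list members, such as Avpr2, Elf5, Adcy6, Gbp2, Rsad2, Mdm2 and those in the plots, were chosen after their values were seen. List genes without a named probe set were not analysed here. Alternatives were quantile normalization, median centring, cyclic loess, a filter on dim genes, the mean of probe sets, array weights, trended and robust variance, the compared arrays alone, the replicate number as a block, leaving out the arrays numbered 3 and 9, and leaving out each array.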

Additional observations from a re-analysis of the deposited data

How the results depend on the processing

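Under 10 alternatives and with each of 9 arrays left out, no count over all genes moved by over 1.5 times. Single genes were followed only for the 92 named by the stated rule, and none of their called differences changed direction. Other genes in the text, chosen after their values were seen, were not followed singly. Genes higher than steady 300 numbered 2814 to 3535 under the alternatives and 2636 to 2721 with an array left out, and lower ones 2856 to 3972 and 2879 to 3049. Against steady 900 the higher genes numbered 2642 to 3347 and 2433 to 2577, and the lower ones 2365 to 3406 and 2342 to 2476. Genes above both steady groups numbered 1255 to 1645 under the alternatives and 1178 to 1289 with an array left out. Those below both numbered 807 to 1386 and 805 to 988. Median centring gave 1514 above and 807 below, against 1356 and 1016 in the fit reported, so their balance also depends on the scaling. With median centring the share of lower genes among those called against steady 300 was 46.8%, against 52.2% in the fit reported, so which direction prevails depends on the scaling. With a replicate block 2814 genes were higher and 3175 lower than in steady 300, and 2642 and 2622 against steady 900; the groups share only the numbers 1 and 2. Deviations of same-numbered arrays correlated at 0.0106 and 0.0892 for returned cells and steady 300, and at 0.0031 and 0.238 for returned cells and steady 900, so the numbers are not taken to pair samples. Of 184 tests of these 92 genes, 169 passed. Most were picked for large differences or small p-values in these same data. A high share of passes and of unchanged calls thus follows from the choice and says little about other genes. Across all settings 2920 repeats gave the same call, 8 were newly called and 10 were lost, the lost ones being Mx1 and Dlgap5l2 against steady 900 and Sesn1 against steady 300. Dlgap5l2 against steady 900 had an adjusted p of 0.0582 with the compared arrays alone, 0.087 without returned replicate 2 and 0.0726 without steady 900 replicate 1. Small list counts against steady 300 also moved: 1 intercalated marker was lower without dim genes, 2 antioxidant genes with array weights, and 0 to 2 cholesterol genes under other settings. Culture age and time at 900 mosmol/kg cannot be told apart from the return itself.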
